A study of Homo sapiens with 8 samples.

Results

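Integrins, laminins and collagens are the receptors and ligands by which epithelial cells hold on to their basement membrane and matrix. The genes described here are 51 members of these families, namely 20 integrin subunits, 8 laminin chains, 19 collagen chains and 4 collagen hydroxylases, chosen by symbol and found on the arrays through the RefSeq accession of each probe. They were matched by 67 probes of 58201 on the array, and 32 of the 51 members entered the test among 15454 genes. RNA came from OAW42-R cells, the cisplatin-resistant counterpart of the serous ovarian cancer line OAW42, obtained as 1 line by repeated exposure to cisplatin. The cells were transfected at 20 nM either with a non-targeting siRNA pool, termed sictrl, or with siUCA1, a pool of a pair of siRNAs against the long noncoding RNA UCA1. RNA was taken 24 h after transfection per the labels, whereas the methods of the study give a longer time. Each group holds 4 one-color Agilent arrays, named A1, M2, A2 and A3. The methods of the study give 4 independent experiments for the sictrl and siUCA1 cells. Whether a name marks the same experiment in both groups is not stated outright in the sources used here. The comparison addresses which transcripts differ once UCA1 is lowered in resistant cells.

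An integrin is a pair of an alpha and a beta subunit that spans the membrane, binds matrix proteins outside and couples to the actin cytoskeleton through adaptor proteins inside. Laminins are trimers of an alpha, a beta and a gamma chain that form the sheet of the basement membrane, and network collagens lie beside them in that sheet. Fibrillar collagens build fibrils, beaded and fibril-associated collagens link such fibrils to their surroundings, and hydroxylases modify collagen chains so that these can fold and be crosslinked. In ovarian carcinoma, spread over the peritoneum involves adhesion of tumor cells to a matrix of laminin, collagen and fibronectin.

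The target of the siRNAs was checked first. UCA1 read 8.35, 8.37, 8.60 and 7.48 on sictrl arrays A1, M2, A2 and A3, and 3.68, 2.59, 3.02 and 3.34 on the siUCA1 arrays of the same names. These values, like all levels below, are log2 intensities relative to the 75th percentile of the array, so that 0 stands for a spot at that percentile, and arrays are always given in the order A1, M2, A2 and A3. UCA1 thus fell by 5.04 on the log2 scale (SE 0.29, adjusted p = 0.000122 with limma, n = 4 per group) in siUCA1, with no overlap of the groups. On each array 20858 to 24039 of 60901 spots were well above background. A pair of arrays stood apart, since the trend over the array surface that remained in the processed signal had a root mean square of 0.321 on sictrl A3 and 0.287 on siUCA1 A1, against 0.0737 to 0.0943 on the other arrays. Of the epithelial markers, PAX8, EPCAM, KRT7, KRT8, KRT18, KRT19 and CDH1 passed the filter, whereas WT1, MUC16 and MSLN were well above background on no array. In a bulk sample, fewer cells expressing a gene and less RNA per cell cannot be told apart.

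The data show that 7 of the chosen members rose after siUCA1 transfection. None of these members was called lower in the fit without pairing of the arrays. The collagen chain COL9A3, which is not among the members, fell by 1.47 on the log2 scale in that fit (adjusted p = 0.0066 with limma). COL6A1 and COL6A2 of the beaded collagen VI rose 2.08-fold and 1.61-fold, the collagen XII chain COL12A1 rose 1.66-fold, the laminin receptor subunits ITGA6 and ITGA7 rose 1.68-fold and 1.33-fold, and the laminin alpha chains LAMA3 and LAMA5 rose 1.87-fold and 1.25-fold. Of the 32 members tested, 7 were thus higher at an adjusted p under 0.05 (limma, Benjamini-Hochberg adjustment over all genes), where 5.72% of all genes tested were higher. None of the 32 was lower, where 5.85% of all genes were, and at an unadjusted p under 0.05 the members numbered 10 higher and 3 lower, where 14.5% and 13.1% of all genes were. The groups did not overlap, with siUCA1 the higher, for 8 of the 32 members (11.2% of all genes), and with siUCA1 the lower for 1 member (9.67% of all genes). The median log2 fold change was 0.30 over the 32 members, 24 of them above 0, and 0.03 over all genes, 54.1% of which were above 0. Only COL6A1 and ITGA6 stayed called without any single array, and the count fell to 2 without sictrl A1, M2 or A2 or without siUCA1 M2, A2 or A3, where 2.25% to 3.43% of all genes were higher. With the arrays scaled to their median in place of the 75th percentile, the median of all genes moved from 0.03 to -0.07, the share of higher genes among all calls from 49.4% to 21.3%, and only COL6A1 was still called, where 0.738% of all genes were higher.

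**Figure D1:**
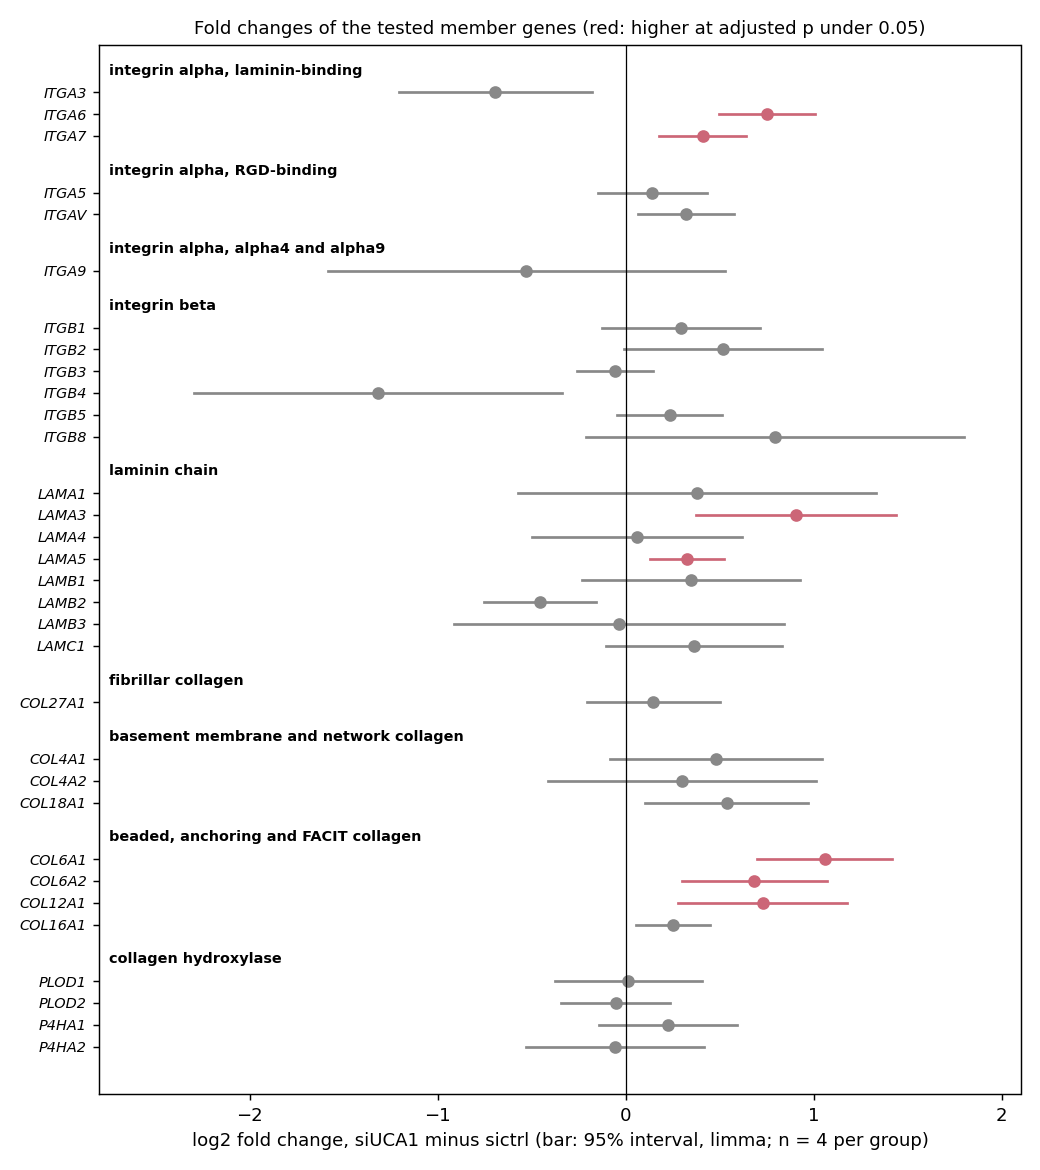
Log2 fold change (x axis, siUCA1 minus sictrl) of each of the 32 tested genes, grouped by role (y axis), with bars for the 95% interval from limma and n = 4 arrays per group. The 7 genes in red were called higher, from 0.33 for LAMA5 to 1.06 for COL6A1, and the intervals of ITGA3, ITGB4 and LAMB2 lie below 0 without a call.

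The promoters of the genes that rose are shown because these genes moved in the same direction. RefSeq sequences for GRCh38.p14 were found for 38 of the 51 members and for 5 of the 7 that rose. Each line gives the 250 bases before an annotated start, 5′ to 3′ on the strand of the gene. Only the first start listed for a gene was used, and whether it belongs to the transcript read by the probe was not tested. Capitals mark the letters of a GC box, a CCAAT box, a TATA box or an AP-1 motif, spelled out beneath, found on either strand.
ITGA6 (chr2:172427086-172427335, plus strand): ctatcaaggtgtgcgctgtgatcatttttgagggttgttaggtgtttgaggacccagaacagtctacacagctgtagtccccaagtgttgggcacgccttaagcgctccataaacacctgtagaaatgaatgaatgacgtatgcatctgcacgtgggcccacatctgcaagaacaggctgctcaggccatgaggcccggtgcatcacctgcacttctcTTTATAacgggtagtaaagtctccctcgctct
COL12A1 (chr6:75206054-75206303, minus strand): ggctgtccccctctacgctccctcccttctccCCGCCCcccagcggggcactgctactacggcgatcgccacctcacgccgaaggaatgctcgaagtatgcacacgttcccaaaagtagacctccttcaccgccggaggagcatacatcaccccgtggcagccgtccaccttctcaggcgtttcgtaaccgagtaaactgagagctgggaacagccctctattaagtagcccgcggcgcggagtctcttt
LAMA3 (chr18:23872770-23873019, plus strand): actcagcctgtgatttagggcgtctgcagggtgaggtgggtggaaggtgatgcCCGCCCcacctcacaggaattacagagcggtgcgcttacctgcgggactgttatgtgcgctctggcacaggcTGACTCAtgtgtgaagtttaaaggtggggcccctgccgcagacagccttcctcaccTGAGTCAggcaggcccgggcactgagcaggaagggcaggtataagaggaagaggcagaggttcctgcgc
LAMA5 (chr20:62367313-62367562, minus strand): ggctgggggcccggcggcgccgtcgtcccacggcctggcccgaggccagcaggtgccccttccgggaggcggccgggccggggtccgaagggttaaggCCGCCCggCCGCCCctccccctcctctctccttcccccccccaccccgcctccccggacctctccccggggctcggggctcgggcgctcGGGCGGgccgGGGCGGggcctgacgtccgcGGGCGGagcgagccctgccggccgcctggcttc
COL6A2 (chr21:46097862-46098111, plus strand): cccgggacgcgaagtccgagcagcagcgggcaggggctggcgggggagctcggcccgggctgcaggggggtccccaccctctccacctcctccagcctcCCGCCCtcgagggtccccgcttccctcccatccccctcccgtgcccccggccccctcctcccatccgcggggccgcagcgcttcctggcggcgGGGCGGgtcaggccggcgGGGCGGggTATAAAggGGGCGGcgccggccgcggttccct

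The motifs were spread unevenly over these promoters. The GC box, GGGCGG, was found at 5 positions in LAMA5, 4 in COL6A2, 1 in LAMA3, 1 in COL12A1 and 0 in ITGA6, and 42.6% of the 35116 promoters of the table hold at least 1 in the same window. The TATA box, TATAAA, was found in ITGA6 and COL6A2 and is held by 3763 of all promoters. The AP-1 motif, TGANTCA with N for any base, stood at 2 positions in LAMA3 and in none of the other 4, and 6.57% of all promoters hold it. No box of the letters CCAAT was found in any of the 5, whereas 11240 of all promoters hold it. In COL6A2 the TATA box stood between 2 of the GC boxes, and no 2 motifs overlapped in their letters. Base composition ranged from 50.8% G and C in ITGA6 to 82.8% in LAMA5. A match of letters is a description of the sequence and not a binding site.

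Among the laminin-binding integrin alpha subunits, 2 of 3 rose. ITGA6, which pairs with ITGB1 or ITGB4 and is the laminin receptor of many epithelia, read 2.11, 2.19, 2.24 and 2.00 on the sictrl arrays and 3.09, 2.67, 2.90 and 2.87 on the siUCA1 arrays. The lowest siUCA1 array lay 0.43 above the highest sictrl array, and the gene rose by 0.75 (SE 0.11, adjusted p = 0.0060 with limma). Its other probe, at 1.28 ± 0.24 in sictrl and 1.97 ± 0.27 in siUCA1 (SD, n = 4), rose by 0.69 (adjusted p = 0.033 with limma over all probes). ITGA6 kept its call when any 1 array was left out, and lost it with median scaling, with normexp background correction, without a detection filter and when the array surface trend was removed (adjusted p = 0.218 with limma, the highest of a range from 0.000877).

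ITGA7, a laminin receptor subunit known mostly from muscle, moved less. It read -0.17, -0.07, -0.01 and 0.17 on the sictrl arrays and 0.32, 0.36, 0.36 and 0.51 on the siUCA1 arrays, a rise of 0.41 (SE 0.10, adjusted p = 0.0346 with limma). Replicate A3 was the highest of each group, and the groups did not overlap. Leaving out single arrays kept the call only for sictrl A3 and siUCA1 A1.

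ITGA3, the remaining laminin-binding alpha subunit, had a negative difference that did not pass the test without pairing of the arrays. With the replicate name as a block it was called lower. It read 2.59, 2.07, 2.39 and 3.09 on the sictrl arrays and 1.89, 1.53, 1.74 and 2.21 on the siUCA1 arrays, a difference of -0.69 (SE 0.23, adjusted p = 0.0842 with limma). The siUCA1 array of each name was below its sictrl namesake, but siUCA1 A3 lay above sictrl M2.

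The beta partners of these receptors did not pass the test without pairing of the arrays. ITGB4, which pairs with ITGA6 in hemidesmosomes, read -1.74, -2.13, -1.46 and -0.42 on the sictrl arrays and -3.05, -2.86, -3.39 and -1.73 on the siUCA1 arrays. Its difference was -1.32 (SE 0.43, adjusted p = 0.0841 with limma). Every sictrl array detected its probe but only siUCA1 A3 did so among the siUCA1 arrays, so that ITGB4 passed the filter only through the sictrl group and the size of its difference rests on siUCA1 values not well above background. The siUCA1 A3 array overlapped with the sictrl group. With the replicate name as a block ITGB4 was called lower, again on those siUCA1 values. ITGB1, the common partner of ITGA3, ITGA6 and ITGA7, differed by 0.29 (95% interval -0.13 to 0.71), from 2.40 ± 0.35 to 2.69 ± 0.21 (SD, n = 4).

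**Figure D2:**
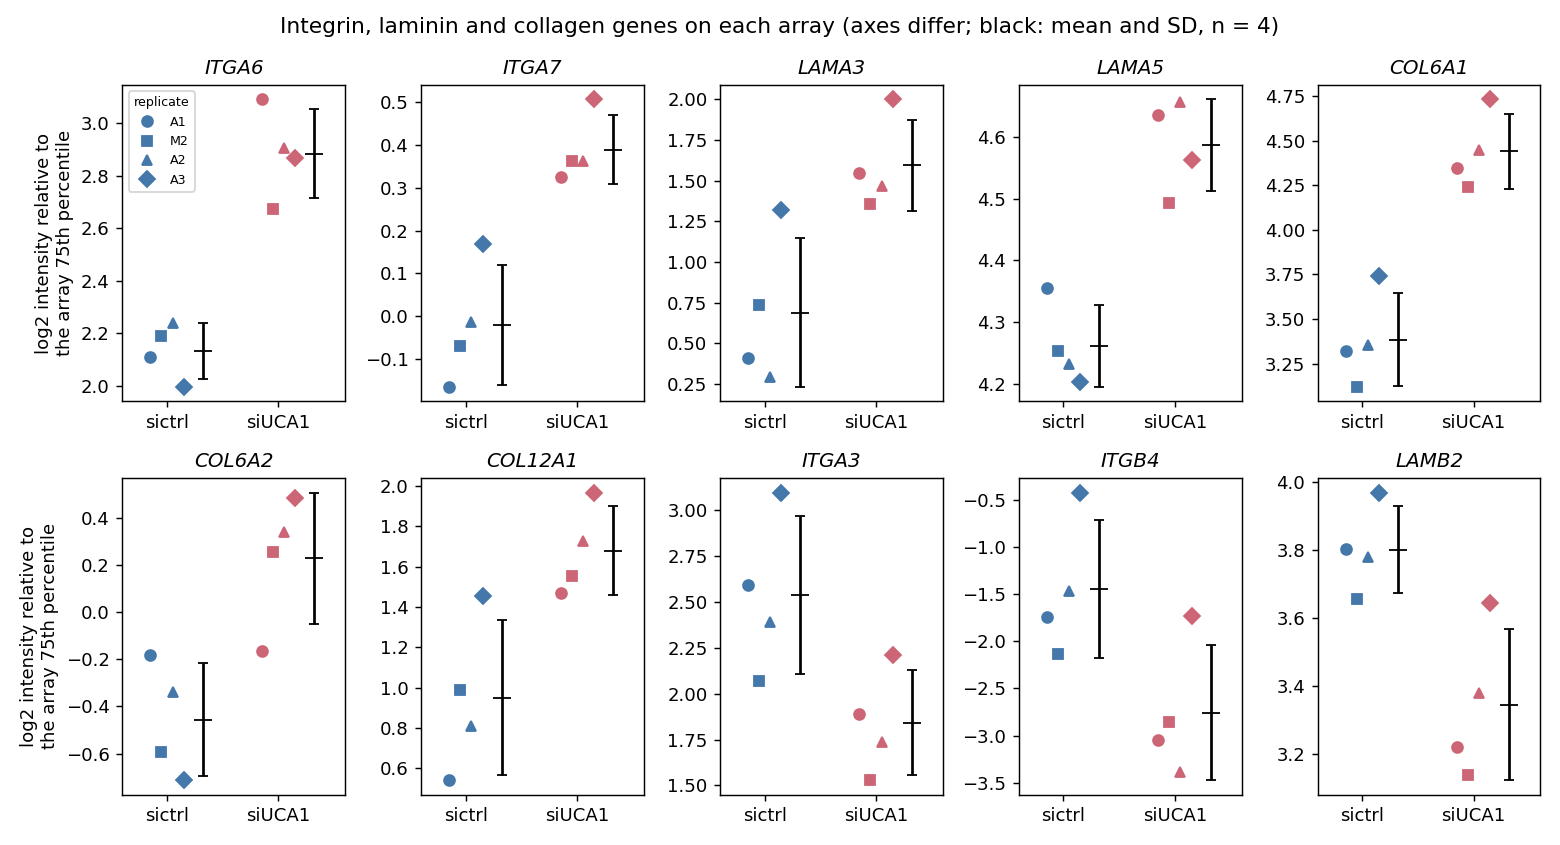
Log2 intensity relative to the array's 75th percentile (y axis, scale differs per panel) of the 7 genes called higher and of ITGA3, ITGB4 and LAMB2 on each sictrl and siUCA1 array, with symbols for the replicate name and black bars for mean and SD of 4 arrays. The groups do not overlap for the 7 genes called and for LAMB2, whereas they overlap for ITGA3 and ITGB4.

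Of the alpha subunits that bind the RGD motif of fibronectin and vitronectin 2 were tested, and neither was called. ITGAV, the alpha partner of ITGB3, ITGB5 and ITGB8, read 3.60, 3.92, 3.71 and 3.82 in sictrl and 3.90, 4.24, 4.14 and 4.06 in siUCA1, a difference of 0.32 (SE 0.11, adjusted p = 0.102 with limma). The fibronectin receptor subunit ITGA5 differed by 0.14 (95% interval -0.15 to 0.43). Both were above their sictrl namesake on 4 of 4 siUCA1 arrays, and the groups overlapped for both.

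Of the other beta subunits, ITGB8, a partner of ITGAV that takes part in the activation of latent TGF-beta, had the largest positive difference without a call. It read 0.28, 0.90, 0.59 and -0.36 in sictrl and -0.21, 1.53, 1.66 and 1.62 in siUCA1, a difference of 0.79 (SE 0.44, adjusted p = 0.286 with limma). Of the siUCA1 arrays, A1 alone lay within the sictrl range, and without that array ITGB8 was called at 1.25. ITGB3 differed by -0.06 (95% interval -0.26 to 0.14), ITGB5 by 0.23 (-0.05 to 0.51) and the leukocyte integrin subunit ITGB2 by 0.52 (-0.01 to 1.04). ITGA9, a receptor subunit for tenascin and osteopontin, differed by -0.53 (95% interval -1.59 to 0.53), and siUCA1 A1 did not detect it.

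All 8 laminin chains passed the filter and 2 of them rose, both alpha chains, which carry the binding site for integrins. LAMA3, the alpha chain of the laminin of epithelial anchoring complexes, read 0.41, 0.73, 0.29 and 1.32 on the sictrl arrays and 1.55, 1.36, 1.47 and 2.00 on the siUCA1 arrays, a rise of 0.90 (SE 0.23, adjusted p = 0.0410 with limma). The lowest siUCA1 array, M2, was 0.0396 above the highest sictrl array, A3. A probe on a noncoding LAMA3 transcript read -0.40, -0.52, -0.63 and -0.54 in sictrl and -0.72, -0.19, 0.20 and 0.28 in siUCA1, a difference of 0.42 (adjusted p = 0.230 with limma over all probes), with siUCA1 A1 below all sictrl arrays.

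LAMB3, a beta chain found in trimers with LAMA3, was not called. It read -0.41, -0.64, -0.41 and 0.10 in sictrl and -1.25, -0.81, -0.17 and 0.73 in siUCA1, a difference of -0.03 (95% interval -0.91 to 0.84), so that the siUCA1 arrays lay on both sides of the sictrl arrays.

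LAMA5, the alpha chain of the most widespread basement membrane laminins, had the smallest rise and a narrow spread. It read 4.36, 4.25, 4.23 and 4.20 in sictrl and 4.64, 4.49, 4.66 and 4.56 in siUCA1, a rise of 0.33 (SE 0.09, adjusted p = 0.0437 with limma). This call was lost when any 1 of the 8 arrays was left out. Its trimer partners LAMB1 and LAMC1 differed by 0.34 (SE 0.26, adjusted p = 0.426 with limma) and 0.36 (SE 0.21, adjusted p = 0.293 with limma). LAMB1 read 6.59, 6.61, 6.58 and 5.47 in sictrl and 6.40, 6.63, 6.84 and 6.76 in siUCA1, so that sictrl A3 alone was low, and without it the difference was 0.0650.

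LAMB2, the beta chain that replaces LAMB1 in several laminins, was the only tested member below sictrl on every siUCA1 array. It read 3.80, 3.66, 3.78 and 3.97 in sictrl and 3.22, 3.14, 3.38 and 3.65 in siUCA1, a difference of -0.46 (SE 0.13, adjusted p = 0.0567 with limma). With the replicate name as a block it was called lower. A further LAMB2 probe fell by 0.50 (adjusted p = 0.0312 with limma over all probes), from 2.21 ± 0.17 to 1.70 ± 0.15 (SD, n = 4), and its groups did not overlap either. The 2 alpha chains LAMA1 and LAMA4 differed by 0.38 (95% interval -0.58 to 1.33) and 0.06 (95% interval -0.50 to 0.62). LAMA1 was high on both A1 arrays, at 0.64 in sictrl and 0.83 in siUCA1, against -0.95 to -0.40 on the other 6.

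Collagen genes made up 3 of the 7 that rose, all from the beaded and fibril-associated types, of which all 4 members were tested. The fibril-associated collagen IX chains COL9A2 and COL9A3, outside the members, went the other way. They differed by -0.49 (adjusted p = 0.193 with limma) and -1.47 (adjusted p = 0.0066 with limma). COL6A1 had the largest rise of the called members. It read 3.32, 3.12, 3.35 and 3.74 on the sictrl arrays and 4.35, 4.24, 4.45 and 4.73 on the siUCA1 arrays, a rise of 1.06 (SE 0.16, adjusted p = 0.0058 with limma). The call stood in 22 of 24 alternative settings and was lost without a detection filter and when the array surface trend was removed (adjusted p = 0.0986 with limma, the highest of a range from 0.000268). COL6A1 and COL6A2 are assembled with a further chain into the microfibrils of collagen VI, which surround cells next to the basement membrane.

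COL6A2 read -0.18, -0.59, -0.34 and -0.71 in sictrl and -0.16, 0.26, 0.34 and 0.48 in siUCA1, a rise of 0.68 (SE 0.17, adjusted p = 0.0349 with limma). The groups were 0.0173 apart, between sictrl A1 and siUCA1 A1. A probe on another COL6A2 transcript differed by 0.65 (adjusted p = 0.116 with limma over all probes), and its groups overlapped. In the RefSeq annotation of GRCh38.p14 COL6A1 and COL6A2 are neighbours on chromosome 21 with no protein-coding gene between them. COL6A3, a further chain of collagen VI, was well above background on no array.

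COL12A1, a collagen that coats the surface of collagen I fibrils, read 0.54, 0.99, 0.81 and 1.45 in sictrl and 1.47, 1.55, 1.73 and 1.97 in siUCA1, a rise of 0.73 (SE 0.20, adjusted p = 0.0473 with limma). The highest sictrl array, A3, lay 0.0124 below the lowest siUCA1 array. COL16A1, another fibril-associated collagen, read -1.63, -1.51, -1.46 and -1.55 in sictrl and -1.27, -1.27, -1.22 and -1.39 in siUCA1. Its difference of 0.25 (SE 0.09, adjusted p = 0.101 with limma) did not pass the test although the groups did not overlap.

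The basement membrane collagens that were detected all lay on the positive side without a call. COL4A1 and COL4A2, which form the common collagen IV trimer and are neighbours on chromosome 13, differed by 0.48 (SE 0.25, adjusted p = 0.251 with limma) and 0.30 (SE 0.31, adjusted p = 0.590 with limma). COL4A1 read 2.71, 2.80, 2.85 and 3.71 in sictrl and 3.24, 3.28, 3.48 and 3.98 in siUCA1, and COL4A2 read 6.30, 5.85, 6.16 and 7.10 in sictrl and 6.44, 6.17, 6.63 and 7.36 in siUCA1. For both chains replicate A3 was the highest array of each group. With single arrays left out the difference ranged from 0.32 to 0.71 for COL4A1 and from 0.06 to 0.55 for COL4A2. COL18A1, the collagen from which endostatin is cut, read 8.02, 7.83, 7.98 and 8.66 in sictrl and 8.64, 8.37, 8.77 and 8.85 in siUCA1, a difference of 0.54 (SE 0.19, adjusted p = 0.107 with limma), and siUCA1 A1 and M2 lay below sictrl A3.

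Most interstitial collagens gave little signal in these cells. Of 6 fibrillar collagens only COL27A1 was tested, and it differed by 0.15 (95% interval -0.21 to 0.50), whereas its other probe differed by -0.45 (adjusted p = 0.141 with limma over all probes). COL1A1 was well above background on 2 sictrl and 3 siUCA1 arrays, COL5A1 on 2 and 2, and COL5A2 on 0 and 2. COL1A2 and COL3A1 were above background on no array, and COL3A1 is the genomic neighbour of COL5A2. Of the neighbours COL4A5 and COL4A6 the former was above background on 0 sictrl and 2 siUCA1 arrays and the latter on none. COL17A1 was above background on 1 siUCA1 array, and COL7A1, COL8A1 and COL13A1 on none.

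The collagen-binding integrins were likewise near or under the background. ITGA1 was above background on 1 sictrl and 2 siUCA1 arrays, and ITGA2, ITGA10 and ITGA11 on none. ITGB7 was above background on 1 sictrl array, and ITGA4, ITGA8 and ITGB6 on none. In all, 19 members were not tested, 12 of them above background on no array and 7 on 1 to 5 arrays. Of the 32 that were tested, 30 were above background on all 8 arrays, the exceptions being ITGA9 and ITGB4.

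**Figure D3:**
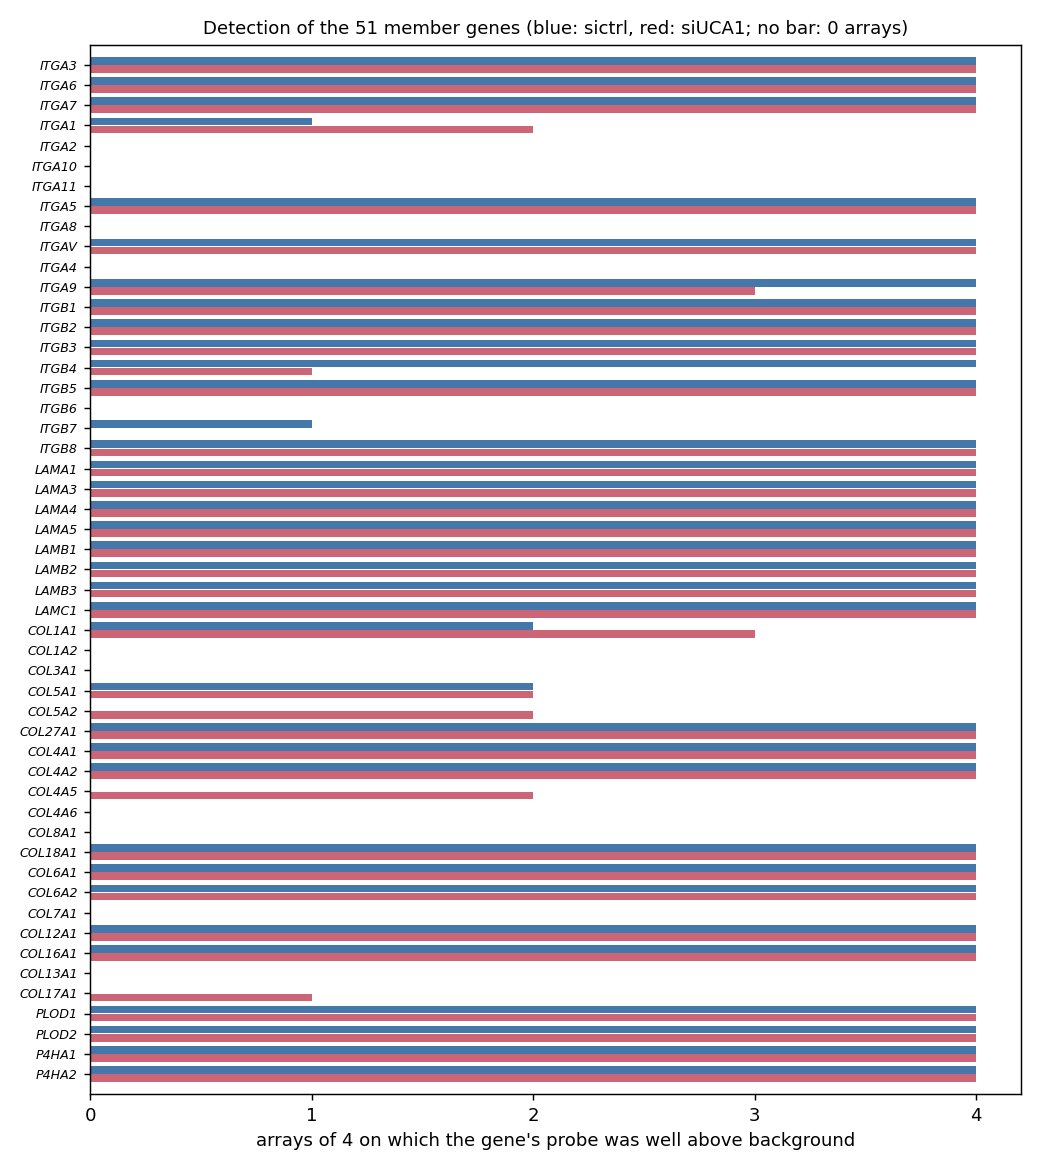
Number of arrays of 4 (x axis) on which the probe of each of the 51 genes (y axis) was well above background, in blue for sictrl and in red for siUCA1, where no bar stands for 0 arrays. Laminin chains reach 4 arrays in both groups, whereas 8 integrin subunits and 11 collagen chains were not kept for the test.

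The collagen hydroxylases, which act on newly made chains, did not pass the test in either direction. PLOD1, PLOD2 and P4HA2 differed by 0.01 (95% interval -0.38 to 0.40), -0.05 (-0.34 to 0.23) and -0.06 (-0.53 to 0.42), and P4HA1 by 0.23 (-0.14 to 0.59). None of the 4 was called by limma, and none had an unadjusted p under 0.05. A dimmer PLOD1 probe differed by -0.61 (adjusted p = 0.0524 with limma over all probes), unlike the brighter one. It was well above background on 4 sictrl and 3 siUCA1 arrays, so that it passed the filter only through the sictrl group.

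Next, 5 lists of related genes were set beside the members, with 11.6% of all genes tested called in either direction as the background. Of 23 tested adhesion adaptors, such as talin, vinculin and paxillin, which join integrins to actin, none was called by limma, 2 had an unadjusted p under 0.05 on each side (14.5% of all genes higher and 13.1% lower), and the log2 fold changes ranged from -0.31 to 0.39. The median size of the log2 fold change was 0.13 for the adaptors, 0.35 for the members and 0.20 for all genes. Among 20 tested genes of collagen folding, secretion and crosslinking, 2 rose and 1 fell, or 15% of the list. SEC23A, a subunit of the COPII coat, rose by 0.83 (from 3.37 ± 0.14 to 4.20 ± 0.13, SD, n = 4; adjusted p = 0.0039 with limma). MIA3, which loads bulky collagens into COPII carriers, rose by 0.69 (from 2.22 ± 0.16 to 2.90 ± 0.07, adjusted p = 0.0063 with limma) by its brightest probe and by 0.32 in the mean of its 5 kept probes. FKBP10, a chaperone of collagen folding, fell by 0.66 (from 2.64 ± 0.23 to 1.98 ± 0.14, adjusted p = 0.0181 with limma).

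Ligands outside the members moved on both sides. Of 11 tested genes for other matrix ligands and basement membrane proteins, 3 were called (27.3%). SPP1 (osteopontin, a ligand of ITGAV integrins) rose by 1.44 (SE 0.30, adjusted p = 0.0183 with limma) and NID2 (nidogen, a linker of laminin and collagen IV) by 1.06 (SE 0.23, adjusted p = 0.0200 with limma). CCN1, a secreted integrin ligand, fell by 0.71 (SE 0.14, adjusted p = 0.0173 with limma). Among 4 tested further collagen chains only COL9A3 was called (25%). COL9A3, a chain of the fibril-associated collagen IX known from cartilage, fell by 1.47 (SE 0.23, adjusted p = 0.0066 with limma). Of 12 tested integrin partners and other matrix receptors only the proteoglycan SDC4 was called (8.33%), and it fell by 1.23 (SE 0.31, adjusted p = 0.0370 with limma). The groups overlapped for SDC4, since siUCA1 A1 read within the sictrl range, and its call was lost when any array other than siUCA1 A1 was left out (adjusted p up to 0.107 with limma). Over 24 alternative settings, COL9A3 was called in 23, SPP1, SEC23A and MIA3 in 21 each, FKBP10 in 18, NID2 in 17, CCN1 in 16 and SDC4 in 14, with no change of sign. The call of SPP1 was lost without sictrl M2 or A2 (adjusted p up to 0.0569 with limma). Those of NID2 and CCN1 were lost without sictrl M2 or A2 or siUCA1 M2 or A2 (up to 0.0661 and 0.0589), and that of FKBP10 without sictrl A2 or siUCA1 A2 (up to 0.0625). With median scaling CCN1, SEC23A, MIA3 and FKBP10 were no longer called.

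**Figure D4:**
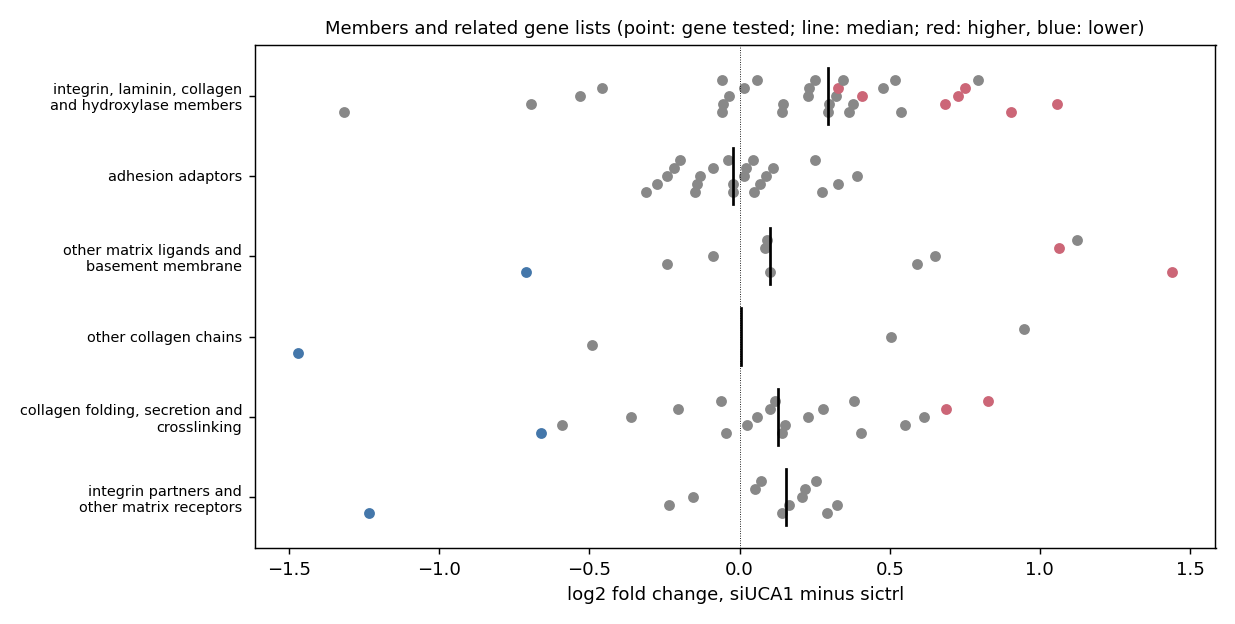
Log2 fold change (x axis, siUCA1 minus sictrl) of each tested member and of each tested gene of the 5 related lists (y axis). A line marks the median, and color marks genes called higher (red) or lower (blue). The members have a median of 0.30 and 7 genes called, all higher, whereas the adhesion adaptors lie between -0.31 and 0.39 with none called.

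Markers of other cell types were read on the same arrays. Of the fibroblast or mesenchymal list, VIM, CDH2 and ACTA2 were tested and none was called, PDGFRA, PDGFRB, DCN, LUM and FAP were above background on no array, and the summed level of the list ranged from 443 to 549 times the 75th percentile in sictrl and from 272 to 487 in siUCA1. Among the leukocyte markers CD14 rose by 0.70 (adjusted p = 0.0478 with limma), CD3E was above background on no array and PTPRC on 2 over its 5 probes, and the summed level ranged from 0.857 to 1.18 in sictrl and from 1.06 to 1.75 in siUCA1. Of the endothelial markers, VWF was above background on all 8 arrays and differed by -0.08 (95% interval -0.37 to 0.22), PECAM1 was above background on 1 siUCA1 array, and CDH5, KDR and TEK were so on none, with a summed level of 0.860 to 1.09 in sictrl and 1.04 to 1.38 in siUCA1. Of the epithelial list CDH1 fell by 0.81 (adjusted p = 0.0149 with limma), EPCAM differed by 0.50 without overlap of the groups and KRT7 by 0.56 with overlap, neither of them called (adjusted p = 0.0675 and 0.137 with limma), and the summed level ranged from 1062 to 1720 in sictrl and from 1122 to 1822 in siUCA1. The part of these markers in the rise of the 7 genes was not tested.

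The 7 calls depended on the setting to different degrees. Over 24 alternative settings, among them each array left out in turn, COL6A1 was called in 22, ITGA6 in 20, ITGA7 and COL12A1 in 13 each, LAMA3 in 12, COL6A2 in 11 and LAMA5 in 8, and in none of the settings did any of the 7 change its sign. Of the genes with negative differences, LAMB2 was called lower in 7 of the 24 settings, ITGA3 in 2 of 24 and ITGB4 in 3 of 23. With every probe tested LAMB2 was also called, but only by its dimmer probe, which is not counted in the 7. All 3 genes were called lower with the replicate name as a block and with array weights. There the calls of ITGB4 rest on siUCA1 values not well above background. Without sictrl A3 and siUCA1 A1, the arrays that stood apart, 13 members were called higher, among them all 7, where 12.9% of all genes were higher. The 6 added were ITGAV, ITGB5, ITGB8, LAMC1, COL4A1 and COL18A1. After removal of the surface trend from all arrays no member was called by limma, where 0.472% of all genes were higher, and 4 higher and 3 lower had an unadjusted p under 0.05.

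**Figure D5:**
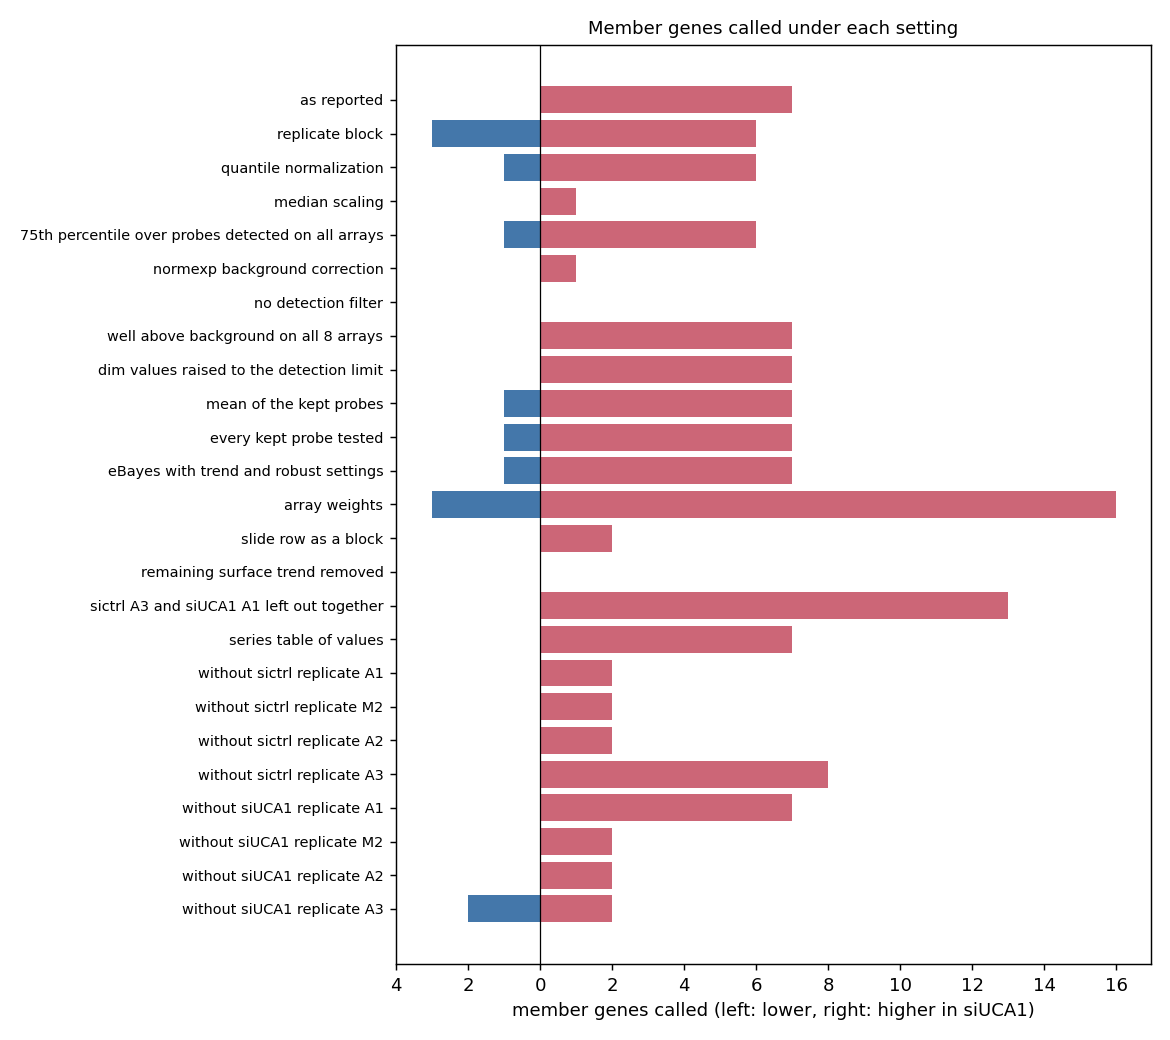
Number of member genes called (x axis, lower to the left in blue and higher to the right in red) as reported and under each of 24 alternative settings (y axis). Counts of higher genes run from 0 without a detection filter or after removal of the surface trend to 16 with array weights, against 7 as reported, where 0.0628%, 0.472%, 16.5% and 5.72% of all genes were higher.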

How the data were processed

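Total RNA of 4 sictrl and 4 siUCA1 samples was labelled with Cy3 and hybridised to 8 arrays of 1 slide, scanned together. The authors deposited spot intensity values from Agilent Feature Extraction 10.7.3.1, per the file headers background-subtracted and detrended over the array surface but not normalized between arrays, and the series table holds the same numbers. Log2 intensities minus each array's 75th percentile were used, outlier spots and control spots were left out, and spots of a probe were averaged. A probe entered the test if the scanner software marked it well above background on each array of 1 group or both, and the brightest such probe stood for its gene. Accessions were named through RefSeq (GRCh38.p14; 11994 of 15454 tested genes and all 51 members matched), whereas the array header names GRCh37. siUCA1 was compared with sictrl in limma 3.58.1 (R 4.3.3) without a block, and genes with a Benjamini-Hochberg adjusted p under 0.05 over all genes were called. The number of arrays limits the precision. An exact permutation test of 4 against 4 arrays cannot go below p = 0.0286 (two-sided), and p-values measure the spread between these arrays. The script was tested on simulated data. In 24 alternative settings the scaling, background correction, filter, probe choice, variance model, slide position and arrays were varied. Members and gene lists were chosen with earlier results of these data known. Values were given for called members, the 3 uncalled ones with the largest fold change, partners of called members and genomic neighbours, and for called genes of each list (at most 4 a direction). The other array experiment of the study was not analysed here. A result that is withheld is not reported here.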

Additional observations from a re-analysis of the deposited data

Results flagged for a closer look

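For each tested gene of these families the 4 arrays of a group were searched for an array far from the other 3, by the gap to its nearest neighbour as a share of the group's range and Dixon's 95% critical value. The surface trend and the number of spots above background of each group were searched in the same way. Of 68 sets in all, 9 exceeded that value, where chance gives about 5%.

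Among the integrins, siUCA1 A1 stood apart for ITGA9 (-2.90 against -1.74 to -1.68, ratio 0.943) and for ITGB8 (-0.21 against 1.53 to 1.66, ratio 0.932). Among the laminins, LAMA1 was high on sictrl A1 (0.64 against -0.95 to -0.82, ratio 0.919) and on siUCA1 A1 (0.83 against -0.49 to -0.40, ratio 0.933). LAMB1 was low on sictrl A3 (5.47 against 6.58 to 6.61, ratio 0.979), whereas LAMC1 was high on the same array (6.99 against 6.48 to 6.54, ratio 0.877), as was COL4A1 (3.71 against 2.71 to 2.85, ratio 0.856). The surface trend itself stood apart on sictrl A3 (0.321 against 0.0790 to 0.0925, ratio 0.944) and on siUCA1 A1 (0.287 against 0.0737 to 0.0943, ratio 0.903). None of the 7 genes called higher had such an array. This is no separate support for their calls, since such an array widens the spread that the test uses.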

How the results depend on the processing

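Of the members, 7 were called higher as reported. With the replicate name as a block the counts were 6 higher and 3 lower (ITGA3, LAMB2 and ITGB4), with COL4A1 added and LAMA5 and COL6A2 lost, and 1726 of all genes were called. The arrays of one name correlated in their deviations from the group means at 0.038 for A1, 0.278 for M2, 0.216 for A2 and 0.127 for A3, and A1 and A3 correlated best with another name. Fewer members were higher with median scaling (1, of 535 genes called in all), normexp background correction (1 of 380), no detection filter (0 of 76; 10 at an unadjusted p under 0.05), slide row as a block (2) and the surface trend removed (0 of 343). More were higher with array weights (16, and 3 lower, of 4812) and without sictrl A3 and siUCA1 A1 (13 of 3878). LAMB2 alone was called lower with quantile normalization, the 75th percentile over detected probes, the mean of the kept probes, and trend and robust settings. It was likewise the only member called lower with every probe tested, there by its dimmer probe. When 1 array was left out, 2 to 8 members were higher, 0 to 2 lower, and 760 to 2290 genes called in all. The causes were not tested.

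Signs turned only for genes not called as reported, of which COL27A1 was called higher with array weights (0.39). PLOD1 was -0.00159 with quantile normalization, -0.0813 with median scaling, -0.00306 with the percentile over detected probes, -0.12 with normexp, -0.30 with the mean of probes and -0.0533 with array weights. LAMA4 was -0.0364 with median scaling and -0.0308 without the surface trend, LAMB3 was 0.0732 with normexp and 0.16 with array weights, and COL27A1 was -0.21 with normexp and -0.15 with the mean of probes. Without sictrl A3 and siUCA1 A1, ITGA9 was 0.14, LAMA1 -0.0773, LAMA4 -0.0150, LAMB3 0.40, PLOD1 -0.0398, PLOD2 0.0219 and P4HA2 0.15. With single arrays left out the ranges were -0.13 to 0.21 for LAMA4, -0.40 to 0.26 for LAMB3, -0.43 to 0.23 for COL27A1, -0.13 to 0.11 for PLOD1, -0.13 to 0.0172 for PLOD2 and -0.26 to 0.0681 for P4HA2.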
